A study of Mus musculus with 18 samples.

Results

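The genes described here serve the blood vessels of skeletal muscle, and are 10 of the 23420 gene rows of an RNA-seq table, each taken by its symbol. They are the VEGF receptors Kdr and Flt1, the receptors Tek and Tie1, the ligands Vegfa, Vegfb and Angpt1, the endothelial surface and junction proteins Pecam1 and Cdh5, and the endothelial nitric oxide synthase Nos3. RNA was sequenced from hindlimb muscle of female C57BL/6J mice aged 2 months (2 m), 20 months (20 m) and 28 months (28 m), with 3 libraries for each age, numbered 1 to 3, and no other treatment or allele. The study's methods describe the 3 libraries of an age as biological replicates, with RNA from the mice also used for MBD-seq, and the labels do not say which mouse gave which library. DNA methylation was measured at the same ages by capture with a methyl-CpG-binding domain and sequencing (MBD-seq), in hindlimb muscle and in splenic T cells, with the DNA of 3 mice combined before capture. The labels list 2 captures of muscle for each age, and the muscle columns name the age and not the capture. The muscle was homogenized whole, so fewer endothelial cells and less of an RNA in each cell cannot be told apart.

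Endothelial cells line the capillaries that run along every muscle fibre. VEGF-A, made in muscle largely by the fibres, binds the tyrosine kinase receptor KDR (VEGFR2), which drives endothelial growth and survival, and FLT1 (VEGFR1), which holds VEGF-A tightly and acts in part as a decoy. VEGF-B binds FLT1 and not KDR. Angiopoietin-1, made by cells around the vessel, binds the receptor TEK (TIE2) and keeps vessels quiescent and tight, and TIE1 is the related receptor that modulates TEK. PECAM1 and VE-cadherin (the product of Cdh5) join endothelial cells to each other, and NOS3 makes the nitric oxide that widens vessels.

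In the RefSeq annotation of GRCm38 (mm10), Kdr lies on the minus strand at chr5:75932827-75978455, Flt1 on the minus strand at chr5:147561604-147726011, Tek on the plus strand at chr4:94739289-94874976 and Tie1 on the minus strand at chr4:118471191-118489849. Vegfa is on the minus strand at chr17:46016993-46032377, Vegfb on the minus strand at chr19:6982472-6987651 and Angpt1 on the minus strand at chr15:42424667-42676977. Pecam1 is on the minus strand at chr11:106654213-106715281, Cdh5 on the plus strand at chr8:104101625-104144502 and Nos3 on the plus strand at chr5:24364819-24384474. Kdr and Flt1 each have a transcript of 30 exons and a short one of 13 exons, and Vegfa has 10 annotated transcripts, which the gene counts merge. Of Nos3's exons, 294 bases overlap Atg9b on the other strand, the counting is not stated to use strand, and Atg9b itself was at 1.8 to 13.3 normalized counts in the 9 libraries.

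Sequences around 3 start sites are shown, those of Flt1 and Kdr because the MBD-seq reads of T cells differed between ages there, and that of Vegfa as one with few reads at any age. Each is the minus strand, 5′ to 3′, from GRCm38, with every CG, the site that methylation and the capture act on, in capitals. The first stretch of Flt1 is the start of intron 1 (chr5:147725501-147725670), the second lies upstream of its start site (chr5:147726439-147726500), the first of Kdr is the start of its intron 1 (chr5:75978001-75978101), and the last 2 are the bases upstream of the start sites of Kdr (chr5:75978459-75978705) and Vegfa (chr17:46032378-46032627).
Flt1 intron 1: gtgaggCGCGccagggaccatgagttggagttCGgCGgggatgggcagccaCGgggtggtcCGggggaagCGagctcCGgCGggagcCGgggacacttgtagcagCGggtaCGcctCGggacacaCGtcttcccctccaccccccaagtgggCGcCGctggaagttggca
Flt1 upstream: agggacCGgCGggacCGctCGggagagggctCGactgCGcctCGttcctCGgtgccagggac
Kdr intron 1: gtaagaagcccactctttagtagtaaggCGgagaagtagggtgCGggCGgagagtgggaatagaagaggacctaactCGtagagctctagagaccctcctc
Kdr upstream: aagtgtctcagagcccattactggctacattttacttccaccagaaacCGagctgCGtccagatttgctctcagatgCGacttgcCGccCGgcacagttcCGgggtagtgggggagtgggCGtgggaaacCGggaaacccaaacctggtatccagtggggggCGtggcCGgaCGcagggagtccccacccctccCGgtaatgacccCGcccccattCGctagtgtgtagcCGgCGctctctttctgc
Vegfa upstream: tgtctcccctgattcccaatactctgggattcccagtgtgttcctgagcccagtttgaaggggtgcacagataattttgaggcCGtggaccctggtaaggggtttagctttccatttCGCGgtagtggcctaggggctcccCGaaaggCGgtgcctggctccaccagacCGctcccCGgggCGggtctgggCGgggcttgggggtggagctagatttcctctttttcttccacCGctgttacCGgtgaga
The Flt1 stretches hold 16 and 8 CGs, the Kdr stretches 4 and 16, and the Vegfa stretch 11. RefSeq promoters of GRCm38 were found for 6 of the 10 genes. In their 250 upstream bases, Vegfb had 26 CGs, Flt1 23, Kdr 16, Vegfa 11, Tie1 6 and Tek 2, against a median of 6 and quartiles of 2 and 16 over 27025 promoters. The letters GGAA on either strand, which form the core of the sites of ETS factors, were present 7 times in Tie1, 6 in Vegfa, 4 in Kdr, 4 in Flt1, 2 in Tek and 1 in Vegfb, and 93.4% of all promoters held them. The letters ACGTG on either strand, the more common core of the hypoxia response element, was in none of these 6 windows and in 16.6% of all promoters. The other form, GCGTG on either strand, was present 2 times in Kdr, 1 time in Flt1 and 2 times in Vegfb, against 28.2% of all promoters with at least 1 match.

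The 9 libraries held 20203833 to 71115244 reads on genes. The libraries numbered 3 stood apart at every age: their 10 most abundant genes took 29.6 to 32.5% of gene reads, against 43.1 to 48.4% in the other 6. Library 1 at 2 m held 5140 normalized counts of marrow neutrophil genes (normalized counts are reads divided by the library's size factor), against 14.9 to 74.2 in the other 8, and 9981 of erythroid genes against 1701 to 3882. Library 2 at 2 m had 115123 normalized counts of slow-fibre genes, against 12890 and 28041 in the other young libraries and 163266 to 289784 at the later ages. This library was also the highest of all 9 for 7 of the 10 genes described here, so for genes named below the adjusted p without it is given where it changes a call.

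All 10 genes passed the filter of a mean of 10 normalized counts, at 301 to 6499 reads per library for every gene but Nos3, which had 185 to 793. By its mean, Nos3 was above 70.3% of all 23420 gene rows, those under the filter included, and Cdh5 above 94.2%. Levels per kilobase of exon, averaged over the 9 libraries, were highest for Vegfb at 2328 ± 330 normalized counts (SD, n = 9). Pecam1 at 910 ± 122 and Cdh5 at 909 ± 110 followed and changed places between libraries, with Pecam1 the higher in 6 of 9. Vegfa came next at 727 ± 118, below Cdh5 in 9 of 9 libraries. Among the receptors, Tie1 at 308 ± 66.8 and Kdr at 287 ± 31.9 could not be ordered, with Tie1 higher in 5 of 9, and neither could Flt1 at 241 ± 27.4 and Tek at 240 ± 41.3, with Flt1 higher in 4 of 9. Kdr was above Flt1 in every library. Angpt1 at 179 ± 21.4 was below Tek in 8 of 9 libraries, and Nos3 at 103 ± 13.7 was the lowest in all 9.

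**Figure D1:**
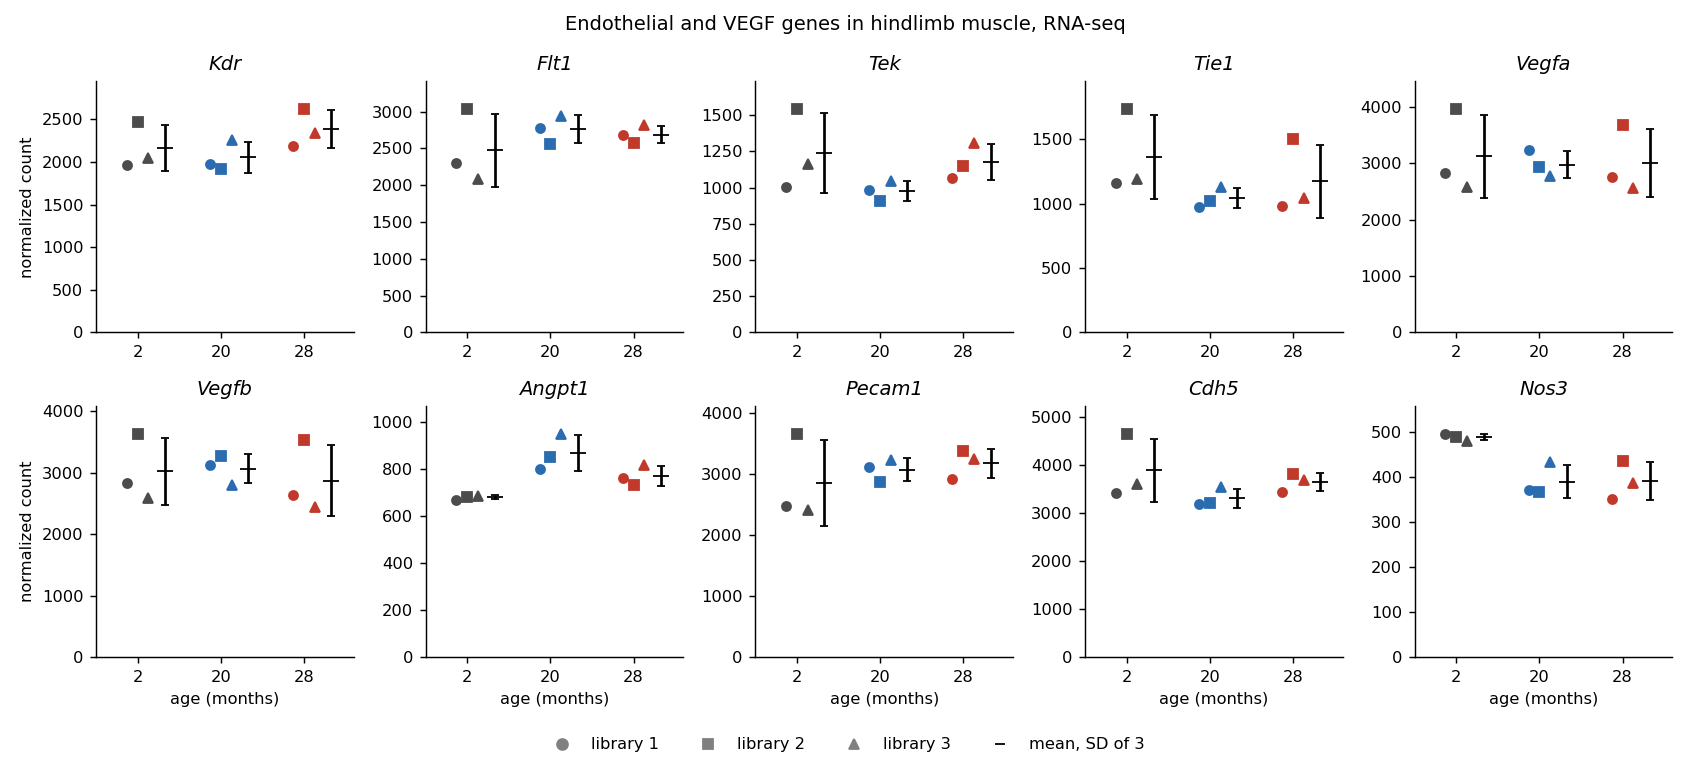
Normalized RNA-seq counts (y axis, from 0) of the 10 genes in each of 9 hindlimb muscle libraries by age in months (x axis), with the marker shape giving the library number and the bars the mean and SD of 3. At 2 m library 2 is the highest for all genes but Angpt1 and Nos3, the 2 genes whose 2-m libraries fall close together, at 671 to 687 and 480 to 495.

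Most differences between ages were within the spread of the libraries. Angpt1 was the only one to pass the test, being higher at 20 m than at 2 m (limma on log2 of the normalized count plus 1, adjusted over 13178 genes, threshold 0.05). It was 1 of 10 genes, where 9.42% of all genes tested were called higher. None was called lower at 20 m against a background of 7.13%, although Tek and Nos3 had unadjusted p under 0.05, and edgeR and DESeq2 also called Angpt1 alone. For 28 against 2 m limma, edgeR and DESeq2 called 0 of 10, with Nos3 at an unadjusted p of 0.020, where limma called 7.53% of all genes higher and 6.24% lower. For 28 against 20 m the 3 tools again called 0, with 0 at an unadjusted p under 0.05, against 0.212% of genes called higher and 0.167% lower. By a rule of more than 2-fold with an unadjusted p under 0.05, 0 of 10 passed in any comparison, where 5.17% of genes passed at 20 against 2 m, 5.14% at 28 against 2 m and 1.31% at 28 against 20 m. The 3 libraries of each age did not overlap for 3 of the 10 genes at 20 against 2 m (Tie1, Angpt1 and Nos3), 2 at 28 against 2 m (Angpt1 and Nos3) and 1 at 28 against 20 m (Tek). The background shares without overlap were 36%, 30.3% and 17.5%, so the genes described here separated by age no more often than genes at large. The comparisons with 2 m share the same 3 young libraries.

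The receptors of VEGF-A were examined first. Kdr, which carries the growth signal, had 1968, 2469 and 2050 normalized counts at 2 m, 1976, 1918 and 2260 at 20 m, and 2186, 2620 and 2342 at 28 m. The ages overlapped in all comparisons. The log2 fold change was -0.07 at 20 m (95% interval -0.30 to 0.16) and 0.14 at 28 m (-0.09 to 0.37), and 0.22 from 20 to 28 m (-0.01 to 0.45, adjusted p = 0.50, limma). Flt1, the tighter binding receptor, had 2302, 3034 and 2089 at 2 m, 2774, 2563 and 2939 at 20 m, and 2678, 2576 and 2810 at 28 m. Its 2 lowest values were both young libraries and so was its highest. The log2 fold change was 0.17 at 20 m (-0.08 to 0.43, adjusted p = 0.35) and 0.14 at 28 m (-0.12 to 0.39, adjusted p = 0.49, limma). Without library 2 at 2 m, Flt1 was called at 20 m, with a log2 fold change of 0.33 and an adjusted p of 0.031 (limma).

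Tek and Tie1, the receptors of the angiopoietin system, had their lowest means at 20 m. Tek had 1007, 1544 and 1162 normalized counts at 2 m, 981, 909 and 1046 at 20 m, and 1066, 1152 and 1310 at 28 m. The 28-m libraries were all above the 20-m ones, and the 2-m library numbered 1 lay inside the 20-m range. Its log2 fold change was -0.32 at 20 against 2 m (-0.62 to -0.01, adjusted p = 0.14) and 0.26 at 28 against 20 m (-0.04 to 0.57, adjusted p = 0.54, limma). Tie1 had 1159, 1736 and 1194 at 2 m, 977, 1024 and 1131 at 20 m, and 983, 1501 and 1042 at 28 m. All 20-m values were below all 2-m values. Its log2 fold change was -0.36 at 20 m (-0.73 to 0.01, adjusted p = 0.17) and -0.21 at 28 m (-0.59 to 0.16, adjusted p = 0.45, limma). Without library 2 at 2 m, the values for 20 m were -0.17 for Tie1 and -0.15 for Tek.

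The VEGF ligands showed no age difference that the libraries could resolve. Vegfa had 2831, 3963 and 2580 normalized counts at 2 m, 3234, 2927 and 2766 at 20 m, and 2761, 3683 and 2561 at 28 m. Library 2 was the highest of its age at 2 m and 28 m and not at 20 m. The log2 fold change of Vegfa was -0.05 at 20 m (-0.39 to 0.29) and -0.05 at 28 m (-0.39 to 0.29), with adjusted p of 0.87 for both (limma). Vegfb, the smallest of these genes at 1282 bases of exon, had 2840, 3630 and 2592 at 2 m, 3123, 3268 and 2803 at 20 m, and 2632, 3527 and 2448 at 28 m. Its order of libraries within 2 m and within 28 m was that of Vegfa. At 20 m Vegfb had a log2 fold change of 0.03 (-0.28 to 0.34) and at 28 m of -0.08 (-0.39 to 0.23).

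Angpt1, the ligand that stabilizes vessels, differed most clearly. It had 671, 684 and 687 normalized counts at 2 m, 801, 854 and 950 at 20 m, and 765, 732 and 817 at 28 m. All later libraries were above all young ones, and the 28-m values overlapped the lower end of the 20-m range. Angpt1 rose 1.27-fold at 20 m (1.10 to 1.47), a log2 fold change of 0.35 ± 0.097 (SE) with an adjusted p of 0.028 by limma, 0.022 by edgeR and 0.012 by DESeq2. Within the libraries numbered 1 and 2 the log2 difference was 0.29, and in the libraries numbered 3 it was 0.47. At 28 m the log2 fold change was 0.18 (-0.03 to 0.39, adjusted p = 0.25), and from 20 to 28 m -0.17 (-0.38 to 0.04, adjusted p = 0.58, limma). The direction at 20 m held in all 21 alternatives and the call in 14 of them. The call was lost without 2-m library 1 (0.077), 2 (0.053) or 3 (0.057), without 20-m library 2 (0.074) or 3 (0.11), with libraries 1 and 2 only (0.15), and with libraries rescaled to the same sum (0.51), where the number in brackets is the adjusted p.

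Pecam1 and Cdh5, which hold endothelial cells together, had fold changes of opposite sign at both later ages. Pecam1 had 2481, 3655 and 2408 normalized counts at 2 m, 3122, 2873 and 3224 at 20 m, and 2915, 3374 and 3248 at 28 m. As for Flt1, the 2 lowest libraries and the highest were young. For Pecam1 the log2 fold change was 0.14 at 20 m (-0.16 to 0.43) and 0.18 at 28 m (-0.11 to 0.47), with adjusted p of 0.53 and 0.41 (limma). Without library 2 at 2 m these became 0.33 and 0.38, with adjusted p of 0.031 and 0.017, both then called. Cdh5 had 3433, 4656 and 3609 at 2 m, 3187, 3223 and 3541 at 20 m, and 3456, 3826 and 3692 at 28 m, with the 2-m library numbered 1 inside the 20-m range. The log2 fold change of Cdh5 was -0.22 at 20 m (-0.45 to 0.01, adjusted p = 0.17) and -0.08 at 28 m (-0.31 to 0.15, adjusted p = 0.67, limma). Without library 2 at 2 m Cdh5 turned to 0.054 at 28 m, the same sign as Pecam1.

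Nos3 had 495, 488 and 480 normalized counts at 2 m, 370, 366 and 432 at 20 m, and 351, 435 and 387 at 28 m. All 6 later libraries were below all 3 young ones, whose SD was 7.38 counts. The fold was 0.80 at 20 m (0.66 to 0.96) and 0.80 at 28 m (0.67 to 0.96), with log2 fold changes of -0.33 and -0.32 and adjusted p of 0.085 and 0.10 (limma), so Nos3 did not pass the test at either age. In all 21 alternatives the log2 fold change stayed negative and not called at both ages, from -0.42 to -0.29 at 20 m and from -0.40 to -0.25 at 28 m. In library 2 at 2 m, the highest of all 9 for the other endothelial genes except Kdr, Nos3 lay between the other young libraries.

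**Figure D2:**
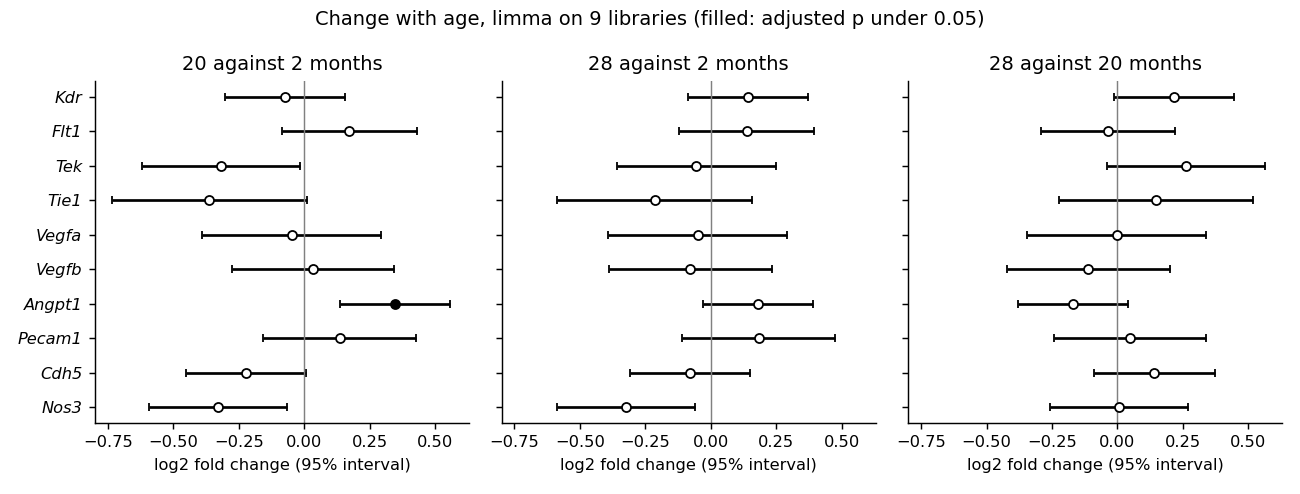
Log2 fold change (x axis) with its 95% interval from limma for the 10 genes (y axis) in the 3 comparisons of ages, with filled points for an adjusted p under 0.05 over all genes tested. Angpt1 at 20 against 2 m, at 0.35, is the only filled point.

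The endothelial genes were next compared with each other inside a library, which removes what changes all of them alike, such as the share of endothelial RNA. For Angpt1, Vegfa and Vegfb, which other cells make, the same division brings that share in. The geometric mean of the 7 endothelial genes (Pecam1, Cdh5, Kdr, Flt1, Tek, Tie1 and Nos3) was 1559, 2078 and 1583 normalized counts at 2 m, 1528, 1481 and 1687 at 20 m, and 1553, 1819 and 1705 at 28 m, so the ages overlapped and library 2 at 2 m was the highest. Each gene was then taken relative to the mean of the other endothelial genes of its library, on the log2 scale. At 20 against 2 m, 6 of the 10 genes had ages that did not overlap, where 25.5% of all genes did so relative to the mean of all 7 endothelial genes. Angpt1 (0.49), Flt1 (0.37) and Pecam1 (0.32) were higher, and Tie1 (-0.26), Tek (-0.21) and Cdh5 (-0.09) were lower. At 28 against 2 m, 2 of 10 separated (Pecam1, 0.25, and Kdr, 0.20), where 17.7% of genes did, and at 28 against 20 m 5 of 10 did, against 14.6%. Those 5 were Kdr (0.12), Angpt1 (-0.28), Flt1 (-0.17), Nos3 (-0.12) and Pecam1 (-0.07). The genes are measured relative to each other, so these counts are not independent. Each such comparison of 3 against 3 gave p = 0.1 in the two-sided exact permutation test, the smallest that design allows.

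Pairs of these genes were also compared as ratios of levels per kilobase. The ratios use the same values as the comparison above, and the pairs were chosen with earlier results of these data known. How often pairs of genes at large separate by age was not computed. Pecam1 to Cdh5 was 0.864, 0.939 and 0.798 at 2 m, 1.17, 1.07 and 1.09 at 20 m, and 1.01, 1.05 and 1.05 at 28 m, with no overlap between any ages. Library 2 at 2 m, high for both genes, had a ratio close to those of the other young libraries. Angpt1 to Tek, the ligand to its receptor, was 0.725, 0.483 and 0.644 at 2 m, 0.890, 1.02 and 0.990 at 20 m, and 0.781, 0.692 and 0.680 at 28 m, so the 20-m values were the highest and those of 2 and 28 m overlapped. Flt1 to Kdr was 0.819, 0.860 and 0.713 at 2 m, 0.983, 0.935 and 0.910 at 20 m, and 0.857, 0.688 and 0.840 at 28 m. Again all 20-m values were above the others. Nos3 to Cdh5 was 0.139, 0.101 and 0.129 at 2 m, 0.112, 0.110 and 0.118 at 20 m, and 0.0982, 0.110 and 0.101 at 28 m, and the ages overlapped.

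**Figure D3:**
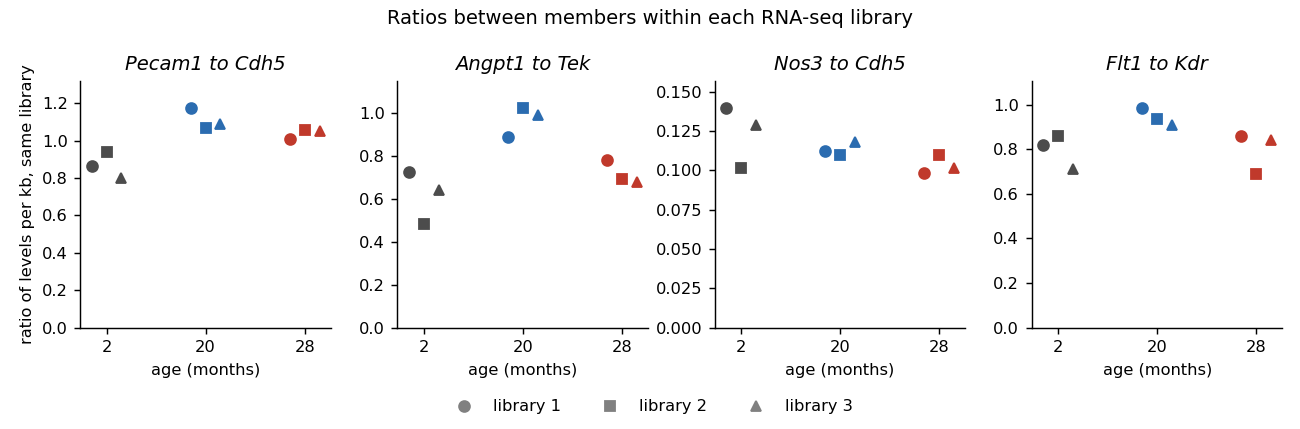
Ratios of levels per kilobase of exon between pairs of the genes within each library (y axis, from 0) by age in months (x axis), with the marker shape giving the library number. Pecam1 to Cdh5 lies at 0.798 to 0.939 at 2 m and above 1 in all 6 later libraries, and Angpt1 to Tek and Flt1 to Kdr are highest at 20 m.

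Other genes of endothelial cells and of the same pathways were read from lists chosen with earlier results of these data known. All 28 other endothelial genes were tested, and 0 rose and 2 fell at 20 against 2 m, 2 rose and 1 fell at 28 against 2 m, and 0 changed at 28 against 20 m. Shares over all genes tested were 9.42% higher and 7.13% lower at 20 m, and 7.53% and 6.24% at 28 m. From 20 to 28 m they were 0.212% and 0.167%. The median log2 fold changes of the 28 genes were -0.15, -0.04 and 0.14, beside -0.02, -0.01 and -0.00 for all genes. Aplnr, the apelin receptor of sprouting and venous endothelium, fell most: it had 484, 603 and 382 normalized counts at 2 m, 48.6, 128 and 114 at 20 m, and 112, 173 and 153 at 28 m. Every later library was below every young one, and the log2 fold change was -2.41 at 20 m and -1.74 at 28 m (adjusted p = 3.7e-04 and 0.0037, limma). Cd34, a marker of endothelial and stromal progenitor cells, fell at 20 m by 0.45 on the log2 scale (adjusted p = 0.0097, limma). That call held in 19 of 21 alternatives, and was lost after rescaling to the same sum (adjusted p = 0.37) and with no filter (0.062, limma). Vwf, the clotting factor of endothelial granules, rose at 28 m by 0.33 (adjusted p = 0.027) and Sox18, an endothelial transcription factor, by 0.66 (adjusted p = 0.033, limma), and each of these 2 calls held in 13 of 21 alternatives.

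Of 18 further genes of the VEGF, angiopoietin and Notch pathways, 16 passed the filter. Among them 1 rose and 1 fell at 20 m, 1 rose at 28 m, and 0 changed from 20 to 28 m. Over all genes tested, 9.42% rose and 7.13% fell at 20 m, and 7.53% and 6.24% did at 28 m. The gene of this list that rose at both ages was Figf, which encodes VEGF-D, a ligand of the lymphatic receptor FLT4 (VEGFR3). It had 89.2, 89.9 and 120 normalized counts at 2 m, 245, 192 and 162 at 20 m, and 251, 204 and 219 at 28 m. All later libraries were above all young ones, the 20-m and 28-m libraries overlapped, the log2 fold change was 0.99 at 20 m and 1.17 at 28 m (adjusted p = 0.0055 and 0.0021, limma), and both calls held in 21 of 21 alternatives. Nrp1, the co-receptor of KDR, had 2802, 3681 and 2787 at 2 m and 2202, 2274 and 2588 at 20 m. It fell at 20 m by 0.38 on the log2 scale (adjusted p = 0.035, limma), a call that held in 15 of 21 alternatives and was lost without library 2 at 2 m (adjusted p = 0.10) and without library 1 (0.14) or 2 (0.11) at 20 m. Vegfc, Pgf, Angpt2, Flt4, Dll4 and the other 9 genes of this list that were tested did not pass at any age.

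Among 16 genes of oxygen sensing and Vegfa control, 1 rose and 1 fell at 20 m and 2 rose and 1 fell at 28 m. For comparison, 9.42% of all genes tested rose and 7.13% fell at 20 m, and 7.53% and 6.24% did at 28 m. Bnip3, a mitophagy gene induced by hypoxia, rose at both ages, by 0.39 and 0.30 on the log2 scale (adjusted p = 0.012 and 0.047, limma), and its calls held in 17 and 9 of 21 alternatives, that at 28 m being lost without library 2 at 2 m (adjusted p = 0.083, limma). Egln2, a prolyl hydroxylase that marks HIF for destruction, fell by 0.34 at each age (adjusted p = 0.026 and 0.030, held in 15 and 14 of 21 alternatives), and Egln3, another of these enzymes, rose at 28 m by 0.52 (adjusted p = 0.0095, limma). The Egln3 call held in 18 of 21 alternatives, and was lost after rescaling to the same sum (adjusted p = 0.14, limma) among others. Hif1a, Epas1, Vhl and Ppargc1a did not pass at any age.

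Other genes of nitric oxide signalling, the pathway of Nos3, were read next. Of 10 tested, 1 rose and 2 fell at 20 m, where 9.42% of all genes rose and 7.13% fell, and 0 rose and 2 fell at 28 m, where 7.53% and 6.24% did. Klf2, the flow-sensing factor that induces Nos3 in endothelium, had 1507, 1367 and 1068 normalized counts at 2 m, 1009, 842 and 896 at 20 m, and 770, 978 and 662 at 28 m. It was lower in all 6 later libraries, as Nos3 was, and fell by 0.51 and 0.71 on the log2 scale (adjusted p = 0.039 and 0.0090, limma). Its call at 20 m held in 13 of 21 alternatives and was lost without library 1 (0.14) or 2 (0.084) at 2 m, any 1 library at 20 m (0.064 to 0.13) or library 1 at 28 m (0.050), where the number in brackets is the adjusted p. Its call at 28 m held in 19 of 21. Nos1, the synthase of the fibres themselves, had 1522, 2160 and 1179 at 2 m, 2886, 3587 and 2759 at 20 m, and 2205, 2656 and 2163 at 28 m. It rose at 20 m by 0.96 on the log2 scale (adjusted p = 0.0037, limma). Cav3, the caveolin of muscle fibres, had 1520, 1663 and 1628 at 2 m, 1020, 1031 and 970 at 20 m, and 1129, 1178 and 1051 at 28 m. It fell by 0.67 and 0.52 (adjusted p = 2.6e-04 and 0.0016, limma). Each Cav3 call held in 20 of 21 alternatives and was lost after rescaling to the same sum (adjusted p = 0.063 and 0.27, limma). Over these 4 lists limma called 0 of 70 genes at 28 against 20 m, with 8 at an unadjusted p under 0.05, edgeR also called 0, and DESeq2 called 1.

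**Figure D4:**
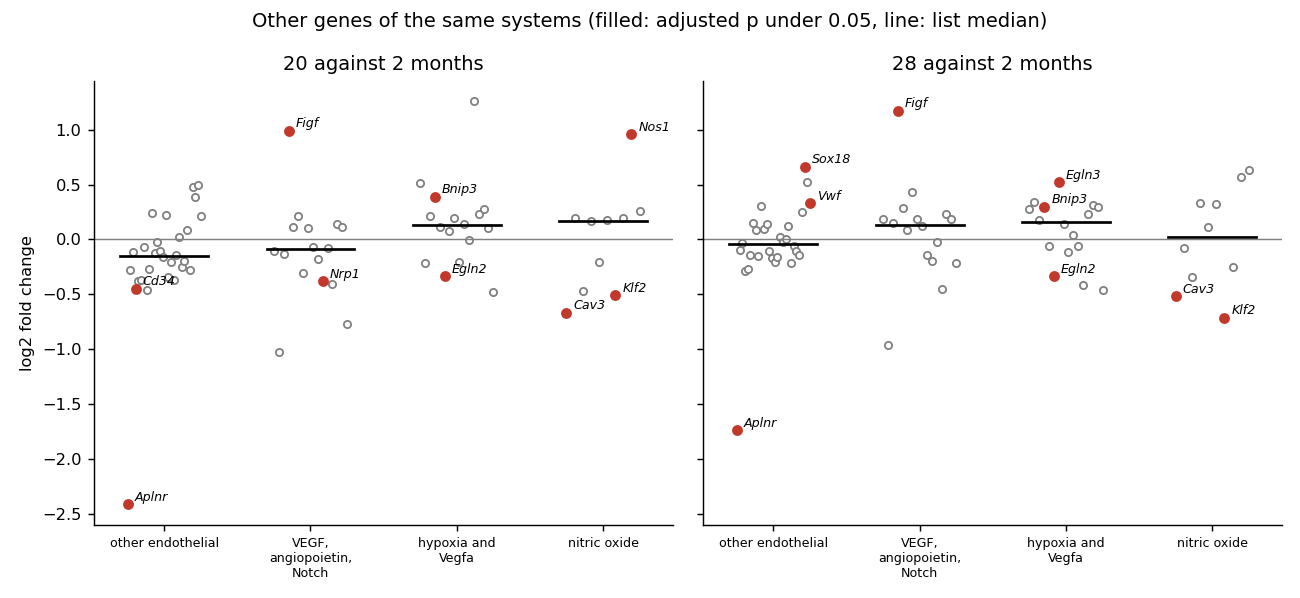
Log2 fold change (y axis) of each gene tested in the lists of other endothelial, VEGF pathway, oxygen sensing and nitric oxide genes (x axis) at 20 and 28 against 2 m, with called genes filled and named and a line at each list's median. Aplnr, at -2.41 and -1.74, lies farthest below 0 among the endothelial genes, and Figf, at 0.99 and 1.17, is the called gene of the VEGF list that is higher at both later ages.

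Markers of other cells in the homogenate changed with age too, and their part in the results above was not tested. Of 68 such genes tested, 9 rose and 15 fell at 20 m, 9 rose and 9 fell at 28 m, and 0 changed from 20 to 28 m (6 at an unadjusted p under 0.05, limma). Beside these counts, 9.42% of all genes tested rose and 7.13% fell at 20 m, and 7.53% and 6.24% did at 28 m. All 7 slow-fibre genes rose at both ages by limma, Myh7 by 3.06 and 3.29 on the log2 scale, while edgeR and DESeq2 called neither Tnnc1 nor Tnni1 at either age nor Tnnt1 at 28 m, and DESeq2 did not call Tnnt1 at 20 m. Of 6 fibroblast genes 3 fell at both ages, Col1a1 with log2 fold changes of -3.50 and -3.34, and of 6 adipocyte genes 5 fell at 20 m and 2 at 28 m. The summed level of the mural cell genes, which mark the pericytes and smooth muscle that make angiopoietin-1, was 30442 to 36284 at 2 m, 32290 to 33977 at 20 m and 33072 to 36456 at 28 m, with 1 of 10 genes, Pdgfrb, called lower at 20 m, a call that held in 12 of 21 alternatives and was lost without library 2 at 2 m (adjusted p = 0.11, limma). The summed level of the 28 other endothelial genes was 29367 to 38022 at 2 m, 29362 to 31977 at 20 m and 30599 to 33519 at 28 m. The leukocyte genes summed to 2019 to 3399 over the 9 libraries, with 2 of 9 called lower at 20 m. Of the lymphatic genes limma called Prox1 higher at both ages and Pdpn lower at 20 m. The Prox1 call at 20 m held in 7 of 21 alternatives, and was lost by edgeR (adjusted p = 0.066) and DESeq2 (0.11), and that at 28 m held in 16. The Pdpn call held in 14 of 21 and was lost without library 2 at 2 m (adjusted p = 0.083, limma). Of the platelet and erythroid genes 0 passed (limma), and in the marrow and the bone and cartilage lists 1 gene each, Mpo and Col2a1, was called lower at 20 and 28 m. The Mpo calls were lost without library 1 at 2 m (adjusted p = 0.18 and 0.21, limma), the library high in marrow genes, and without library 2 at 2 m (0.084 and 0.093). The defining genes Ccl21a (lymphatic) and Hba-a1 (erythroid) were listed at 0 in all libraries. Reads without a unique alignment, 20.5 to 22.3% of each library's reads, were not counted for any gene. These 0s therefore cannot show that the transcripts were absent, and the erythroid genes together summed to 1701 to 9981.

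The genes with the nearest profiles over the 9 libraries were found by the root mean square difference of standardized log2 values from the mean of the 7 endothelial genes. The nearest of 13168 genes were Dock6 (0.365 SD), Lime1 (0.368), Pdss1 (0.379), Ppp1r35 (0.380), Robo4 (0.385), Dlst (0.398), Ablim3 (0.410), Fgfrl1 (0.424), Fam179a (0.424) and Adcy6 (0.427), where the median gene was at 1.18. Robo4 is itself an endothelial gene and was on the list of 28, of which 6 were among the nearest 100 genes and 17 among the nearest 10%. Nearest to Vegfa were Cox7b (0.260), D10Jhu81e (0.274), Cox5b (0.308), Cox4i1 (0.318) and Afg3l2 (0.353), against a median of 1.33. Of these, Cox7b, Cox5b and Cox4i1 encode subunits of cytochrome c oxidase, the last enzyme of the respiratory chain. The profiles share library 2 at 2 m, the highest for most of the 7 endothelial genes and for Vegfa.

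MBD-seq gave the methylated DNA captured at the start site of each gene, as the mean normalized count of the 5 bins of 500 bp that meet the window from 1000 bp before to 1000 bp after it. The table has 1 column for each tissue and age, so ages were compared by their values with no test. The 95% Poisson intervals cover counting error at most, and take each count as a separate read. Columns hold more counts on bins than the average reads that the paper gives per age group. A read may thus count in several bins, and the intervals may then be too narrow. In muscle, 6 of the 10 genes were lower at 20 m than at 2 m and 6 were lower at 28 m, where 56% and 41.5% of 26112 start sites were. In T cells 1 of 10 was lower at 20 m and 3 at 28 m, where 35.1% and 34.4% of start sites were. More than 2-fold higher, on the scale of log2 of the level plus 1, were 0 of 10 in muscle at 20 m and 0 at 28 m, beside 2.98% and 19.8% of start sites, and in T cells 0 of 10 at 20 m and 4 at 28 m, beside 9.38% and 12.2%. These 4 were Flt1, Angpt1, Kdr and Vegfa, and Vegfa was at 0.96 on the log2 scale, under 2-fold, when libraries were rescaled to the same sum. Rescaling changed the directions of many genes. After it, 2 of 10 were lower in muscle at 20 m and 4 at 28 m, beside 45.6% and 22.1% of start sites, and 6 and 4 of 10 in T cells, beside 56.4% and 53.5%. Tek and Vegfa were then more than 2-fold higher in muscle at 28 m, beside 33.9% of start sites, and 3 of 10 in T cells, beside 7.65%. The 2 tissues changed in opposite directions at 28 m at 5 of the 10 start sites and at 57.5% of all, and after rescaling at 6 of 10 and 56.1%.

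Flt1 differed most, in T cells at 28 m. It was at 2.44 at 2 m (1.26 to 4.26, 12 reads), 5.35 at 20 m (3.36 to 8.11, 22 reads) and 23.8 at 28 m (19.1 to 29.2, 90 reads). This log2 change of 2.85 was exceeded at 467 of the start sites, or 1.79%, and was 2.45 after rescaling. Kdr was at 19.5 (15.8 to 23.8, 96 reads), 31.4 (26.2 to 37.3, 129 reads) and 53.7 (46.5 to 61.6, 203 reads), a log2 change of 1.42 at 28 m that 6.94% of start sites exceeded. The intervals at 2 and 28 m did not overlap for either gene. In muscle the same windows were at 3.28, 3.20 and 4.08 for Flt1 and at 7.64, 8.25 and 5.23 for Kdr, and their intervals overlapped between 2 and 28 m. In the narrower window of 500 bp, however, Flt1 in muscle had 0 reads at 2 m and 17 at 28 m. That was a log2 change of 2.21, or 2.87 after rescaling.

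The bins next to the start sites, from which the stretches printed above were taken, were read singly. Positions are those of a bin's centre from the start site, negative before it. The Kdr bin at 204.5 bp, with 39 CGs, had 0, 7 and 74 reads in T cells at 2, 20 and 28 m, or 0 (upper limit 3.74), 8.52 and 97.8 normalized counts (76.8 to 122.8). In muscle it had 0, 2 and 5 reads. The Kdr bin at -295.5 bp, with 23 CGs, had 14, 16 and 24 reads in T cells and 3, 2 and 1 in muscle. Around Flt1, the bin at -239.5 bp, with 45 CGs, had 0, 0 and 32 reads in T cells, and the bin at 260.5 bp, with 54 CGs, had 4, 1 and 27. At 28 m these reads stood for 42.3 (28.9 to 59.7) and 35.7 (23.5 to 51.9) normalized counts. In muscle the same bins had 0, 2 and 5 and 0, 0 and 6 reads. Farther from Flt1, the bin at -1739.5 bp had 61.0, 22.7 and 19.8 normalized counts in muscle and 58.9, 31.6 and 55.5 in T cells. Each of the 4 bins next to the start sites had its highest read number in the 28-m T cells.

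Vegfa had little captured DNA at its start site in either tissue, with 2.64, 5.84 and 7.93 in T cells (13, 24 and 30 reads) and 2.18, 0.842 and 4.08 in muscle (12, 5 and 32 reads), and the intervals at 2 and 28 m overlapped in muscle. In T cells they did not (1.41 to 4.51 and 5.35 to 11.3), and after rescaling they did (1.11 to 3.57 and 3.38 to 7.16). Angpt1, the gene whose RNA rose in muscle at 20 m, was at 10.6, 10.4 and 11.2 in muscle. Its intervals overlapped between all 3 ages. In T cells Angpt1 was at 4.06, 4.87 and 13.2, with intervals at 2 m (2.48 to 6.27) and 28 m (9.81 to 17.4) that did not overlap before or after rescaling. Nos3, the most heavily captured of the 10 at 2 m in both tissues, was at 33.3, 29.8 and 21.8 in muscle (28.6 to 38.5 at 2 m and 18.7 to 25.3 at 28 m, and 36.7 to 49.3 and 32.5 to 44.1, which overlap, after rescaling) and at 42.8, 45.3 and 67.7 in T cells (37.3 to 49.0 at 2 m and 59.6 to 76.5 at 28 m, and 29.5 to 38.8 and 37.7 to 48.3, which overlap, after rescaling). Its bin at -68.5 bp had 92.8, 74.9 and 27.4 normalized counts at 2, 20 and 28 m in muscle and 104, 124 and 205 in T cells, so the 28-m value was the lowest in muscle and the highest in T cells.

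The remaining genes covered a wide range of levels, from 3.54 for Tek to 30.6 for Tie1 in muscle at 20 m. Pecam1 was at 21.7, 21.0 and 16.3 in muscle and 29.0, 33.1 and 28.3 in T cells, and Cdh5 at 20.0, 27.6 and 16.1 in muscle and 35.5, 41.9 and 41.2 in T cells. Tie1 was at 28.9, 30.6 and 17.7 in muscle and 36.5, 43.8 and 34.4 in T cells. Its muscle intervals at 2 m (24.6 to 33.8) and 28 m (14.9 to 20.9) did not overlap, and after rescaling they did (31.5 to 43.3 and 26.0 to 36.5). Tek, with the fewest CGs of the 6 promoters, was at 3.82, 3.54 and 7.90 in muscle and 13.4, 9.25 and 11.6 in T cells. Its muscle intervals at 2 m (2.37 to 5.84, 21 reads) and 28 m (6.06 to 10.1, 62 reads) did not overlap, and stayed apart after rescaling (3.03 to 7.48 and 10.6 to 17.7). Vegfb was at 11.8, 12.0 and 8.29 in muscle and 11.0, 17.0 and 17.7 in T cells. Over whole gene bodies, 9 of the 10 genes, all but Angpt1, were lower in muscle at 20 m and at 28 m, and 10 of 10 were higher in T cells at 28 m. Of all 26110 gene bodies, 70.9% and 66% were lower in muscle at these ages and 79.3% were higher in T cells at 28 m. After rescaling, 8 and 6 of the 10 were lower in muscle (50.6% and 31.3% of gene bodies) and 3 of 10, Pecam1, Vegfa and Vegfb, were higher in T cells at 28 m (39.9%). Over all start sites the muscle median was 9.46, 9.43 and 11.5, and the T-cell median 11.0, 12.9 and 14.3.

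**Figure D5:**
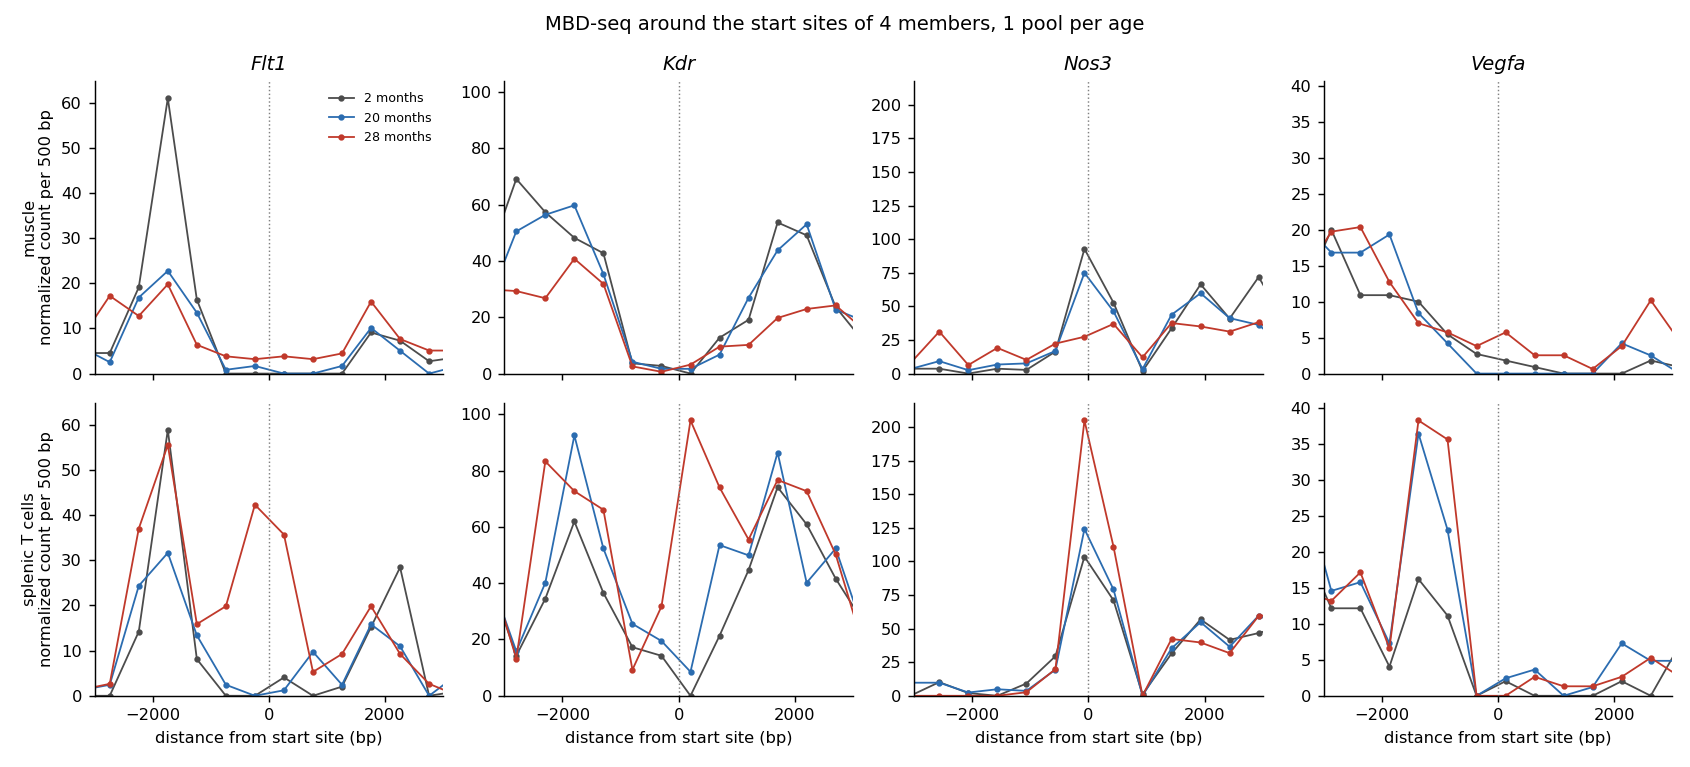
Normalized MBD-seq counts per 500-bp bin (y axis) by distance from the start site in bp (x axis) for Flt1, Kdr, Nos3 and Vegfa in muscle (upper row) and splenic T cells (lower row), with a line for each age, 1 column of the table each. In T cells at 28 m the Kdr bin at 204.5 bp and the Flt1 bin at -239.5 bp reach 97.8 and 42.3, and both are at 0 at 2 m.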

How the data were processed

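Poly-A RNA of hindlimb muscle was sequenced in 9 libraries, 3 for each age, and methylated DNA captured with a methyl-CpG-binding domain was sequenced from muscle and splenic T cells. The authors used Trim Galore on the reads, then Bowtie2 for MBD-seq and Hisat2 for RNA-seq (TopHat in the submitters' processing notes) to align them to mm10. Reads were counted per refSeq gene with htseq-count, or in 500-bp bins with bedtools, and each library was divided by its DESeq2 size factor. The deposited values are thus normalized counts, a signal, and whole reads were recovered for 100% of values within 0.001 reads. RNA-seq libraries held 20203833 to 71115244 reads on genes, and MBD-seq columns 135254786 to 200456498 reads on bins. The 5 htseq summary rows, 37.9 to 47.7% of RNA-seq reads, were left out.

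The 9 RNA-seq libraries were fitted together by limma 3.58.1 in R 4.3.3 (limma-trend, log2 of the normalized count plus 1, age as the only term), for 13178 genes with a mean of at least 10, with Benjamini-Hochberg adjustment over all of them. Fold changes are on that log2 scale. Replicate numbers were not treated as pairs. The alternatives changed 1 choice at a time: the pseudocount (0.1 or 5), the filter (none, or a mean of 50), the scaling (equal sums, or quantile), a block for the replicate number, a fit to the groups compared alone, edgeR 4.0.16, DESeq2 1.42.0 (both on recovered reads), and each library left out in turn. After seeing the data, 2 more were added: a term for the libraries numbered 3, and only the libraries numbered 1 and 2. The code was tested on simulated data. MBD-seq alternatives were a window of 500 bp, the gene body, rescaling and a pseudocount of 0.25.

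The 10 genes, the lists and the pairs compared as ratios were chosen with earlier results of these data known. Named were all 10 genes, up to the 3 largest rises and falls with an adjusted p under 0.05 in each list and comparison, the 10 nearest profiles to the endothelial genes and 5 to Vegfa, and genes needed to check a cell type. Sequences and positions came from RefSeq (GRCm38.p6). Python 3.11.15 and scipy 1.17.1 gave exact permutation tests and Poisson intervals. Polymerase chain reaction copies were not removed by molecular tags, so intervals cover counting error at most, and are too narrow where a read counts in several bins. The summed levels are sums of normalized counts over a list.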

Additional observations from a re-analysis of the deposited data

Results flagged for a closer look

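MBD-seq levels at 5 of the 10 start sites changed in opposite directions from 2 to 28 m in the 2 tissues, as did 57.5% of all start sites. After rescaling to the same sum 6 of 10 did, with Pecam1 added, beside 56.1%. Each tissue and age was 1 column of the table, so the difference was not tested. Kdr was higher at 28 m in T cells and lower in muscle, and its log2 change in T cells exceeded that in muscle by 1.89, or by 1.18 after rescaling. Nos3, Vegfb and Cdh5 were likewise higher in T cells and lower in muscle, with T-cell changes that exceeded the muscle changes by 1.24, 1.11 and 0.51. After rescaling the differences for Nos3 and Vegfb were 0.49 and 0.40. In muscle, Vegfb had 65 reads at 2 m and 65 at 28 m, and Kdr 42 and 41. Their muscle log2 changes of -0.47 each became -0.06 for Vegfb and -0.09 for Kdr after rescaling. For Cdh5 rescaling turned both directions, to log2 changes of 0.12 in muscle and -0.11 in T cells. Tek went the other way, lower in T cells and higher in muscle, with a T-cell minus muscle difference of -1.07, or -1.80 after rescaling.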

How the results depend on the processing

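Angpt1 was the 1 gene called, and 0 were called at 20 m with libraries rescaled to the same sum or with only the libraries numbered 1 and 2. Leaving out 1 library gave 0 to 2 genes called higher at 20 m and 0 to 1 at 28 m, the higher counts being those without library 2 at 2 m. Replicate numbers pair nothing in the labels. Libraries of equal number deviated together at r of 0.109, 0.150 and 0.161 for number 3 and of -0.040 to 0.0998 for the others, so the block is only an alternative. The replicate block left 1 gene called higher at 20 m and 0 at 28 m and changed no other call of the 10 genes, and it raised the genes called higher in the 4 endothelial, VEGF, hypoxia and nitric oxide lists at 28 m from 5 to 9. In those lists the 6 genes lower at 20 m became 2 with no filter, 1 after rescaling and 3 to 8 leaving out 1 library, and the 3 higher became 1 with no filter and 2 to 9. At 28 m the 4 lower became 1 with no filter, 1 after rescaling and 3 to 5, and the 5 higher became 1 with no filter, 1 after rescaling, 3 with only the groups compared, 1 with only the libraries numbered 1 and 2 and 2 to 10. In the other cell type lists the 15 lower at 20 m became 4 with no filter, 9 with only the libraries numbered 1 and 2 and 7 to 16, and the 9 higher became 0, 1, 5 by DESeq2 and 4 to 9. At 28 m the 9 lower became 14 by edgeR, 3 with no filter, 4 with only the libraries numbered 1 and 2 and 4 to 10, and the 9 higher became 0, 1 and 5 to 10. Moves of over 1.5 times came without library 2 at 2 m (the 9 and 10 higher endothelial, VEGF, hypoxia and nitric oxide genes), without library 1 at 20 m (the 3 lower at 20 m), and without library 1 or 3 at 2 m or 28 m (2 to 3 higher at 28 m). In the other cell type lists they came without library 1 at 20 m (4 higher, 8 lower), library 2 at 20 m (7 lower), library 1 at 2 m (8 lower at 20 m, 5 lower at 28 m) and library 1 at 28 m (5 higher, 4 lower). DESeq2 called 1 gene higher at 28 against 20 m in each of the 2 sets of lists.

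Of the log2 fold changes of the 10 genes under alternatives, 587 kept direction and side of the threshold, 33 turned sign, 3 gained and 7 lost the call. At 28 against 20 m Vegfa, at -0.0025, became 0.016 by DESeq2 and by edgeR, 0.021 after rescaling, 0.049 by quantile normalization and 0.052 with libraries 1 and 2 (-0.16 to 0.10 leaving out 1 library). Quantile normalization gave 0.019 for Flt1 (-0.088 to 0.011 leaving out 1) and -0.014 for Nos3 (-0.075 to 0.082) in that comparison. With only libraries 1 and 2, Flt1 at 28 m was -0.0094, Pecam1 at 20 m -0.0078 and Vegfb at 20 m -0.0070, and Vegfb was -0.0419 by quantile normalization (-0.070 to 0.17 leaving out 1). Leaving out 1 library also turned Cdh5 at 28 m (-0.17 to 0.054), Kdr at 20 m (-0.14 to 0.027), Tek at 28 m (-0.19 to 0.12), Tie1 at 28 against 20 m (-0.0423 to 0.26), Vegfa at 20 m (-0.17 to 0.14) and 28 m (-0.21 to 0.13), and Vegfb at 28 m (-0.24 to 0.062). The cause was not tested. In MBD-seq the genes lower at 20 m in muscle were 2 rather than 6 after rescaling. In T cells the 1 lower at 20 m became 2 within 500 bp, 2 over the gene body and 6 after rescaling, and the 3 at 28 m became 1 and 0 in those windows. Depth was low for Vegfa, at 5 to 32 reads in its 1000-bp muscle window, and for Flt1, with 12 reads in its T-cell window at 2 m.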
